A study of Mus musculus with 6 samples.

Results

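The 10 genes described here, Cdkn1a, Mdm2, Ccng1, Gadd45a, Trp53inp1, Sesn1, Phlda3, Eda2r, Aen and Zmat3, are known targets of the transcription factor p53. They were taken as a fixed list of names, and every probe whose RefSeq accession belongs to them was read from the scanner files. This gave 14 of the 55681 non-control probes on the array, and 10 of the 20145 genes that could be named. The hearts came from male C57bl/6j mice, 11 to 12 weeks old, and messenger RNA of their ventricles was measured on 6 one-colour Agilent arrays, with 1 mouse per array. The 3 icKO mice were Tead1F/F and carried Myh6-CreER, a Cre recombinase that is made in cardiomyocytes and is activated by tamoxifen. The 3 control mice were Tead1 flox mice, for which the labels name no Cre. Mice of both groups were given tamoxifen, so the floxed alleles and the drug were shared, whereas an effect of the Cre itself and one of Tead1 deletion cannot be told apart. Tead1 is a transcription factor to which YAP and TAZ bind, and only cardiomyocytes should lose it here, while the ventricle also holds fibroblasts, endothelial cells and macrophages.

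The p53 protein, encoded by Trp53, is kept scarce in unstressed cells because Mdm2, a ubiquitin ligase, marks it for degradation. DNA damage, oxidative stress or nucleolar stress stabilises it, and it then binds paired copies of a short DNA element and switches on genes for cell cycle arrest, cell death, DNA repair and metabolic restraint, together with Mdm2 itself. Several of these genes also answer to other factors, among them FOXO proteins, the glucocorticoid receptor and stress kinases, so their messenger levels are not a reading of p53 alone.

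Promoters are shown for 2 members that rose, Cdkn1a and Phlda3, and for the 3 that fell. Matches to the p53 element can be read in all of these but Phlda3, for which none was found. Sesn1, which also rose and held a match, is not printed. RefSeq promoter windows on build GRCm38.p6, 250 bases before to 50 after each start, were found for 8 of the 10 genes, in 11 windows, and Trp53inp1 and Zmat3 were not among them. The search used the 10-letter p53 half-site consensus, which reads the same on both strands, pairs of it with a spacer of up to 13 bases (the full consensus), and GGAATG or its reverse CATTCC, the core that TEAD factors bind. Each line below is 5′ to 3′ on the gene's strand, with p53 half-sites in capitals, except for Phlda3, where the capitals mark GGAATG. The windows are chr17:29090729-29091028 (plus strand) for Cdkn1a, chr1:135765835-135766134 (plus) for Phlda3, chr7:78895677-78895976 (plus) for Aen, chr11:40755237-40755536 (minus) for Ccng1 and chr6:67037358-67037657 (minus) for Gadd45a.
Cdkn1a: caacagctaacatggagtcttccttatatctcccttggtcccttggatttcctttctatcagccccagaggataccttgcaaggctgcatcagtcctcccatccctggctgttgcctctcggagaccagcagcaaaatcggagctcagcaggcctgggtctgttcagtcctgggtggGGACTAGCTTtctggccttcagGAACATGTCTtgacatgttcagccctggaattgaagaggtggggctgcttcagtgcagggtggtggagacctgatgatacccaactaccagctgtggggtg
Phlda3: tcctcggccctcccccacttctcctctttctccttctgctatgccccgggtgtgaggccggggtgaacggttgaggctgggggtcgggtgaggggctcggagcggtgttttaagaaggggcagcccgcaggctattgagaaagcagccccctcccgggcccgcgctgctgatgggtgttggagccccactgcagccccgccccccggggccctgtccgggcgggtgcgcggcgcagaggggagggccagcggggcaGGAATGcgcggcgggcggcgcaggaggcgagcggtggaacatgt
Aen: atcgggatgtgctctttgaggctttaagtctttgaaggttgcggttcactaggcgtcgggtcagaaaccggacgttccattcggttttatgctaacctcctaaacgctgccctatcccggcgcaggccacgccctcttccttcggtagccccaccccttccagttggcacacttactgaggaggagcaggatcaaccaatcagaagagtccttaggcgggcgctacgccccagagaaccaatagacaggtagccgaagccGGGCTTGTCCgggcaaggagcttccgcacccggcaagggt
Ccng1: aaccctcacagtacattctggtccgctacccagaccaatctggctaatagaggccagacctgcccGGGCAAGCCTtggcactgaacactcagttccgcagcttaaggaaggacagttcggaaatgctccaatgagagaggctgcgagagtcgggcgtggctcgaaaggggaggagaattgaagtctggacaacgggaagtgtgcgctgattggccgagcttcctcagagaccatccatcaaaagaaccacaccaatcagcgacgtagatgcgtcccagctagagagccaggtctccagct
Gadd45a: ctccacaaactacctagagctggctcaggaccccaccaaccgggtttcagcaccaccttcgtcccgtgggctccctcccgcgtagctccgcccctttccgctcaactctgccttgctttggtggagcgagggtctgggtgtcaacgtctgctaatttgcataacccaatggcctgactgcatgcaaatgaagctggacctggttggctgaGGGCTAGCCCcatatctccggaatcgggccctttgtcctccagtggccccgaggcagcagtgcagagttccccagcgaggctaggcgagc

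The Cdkn1a window held a pair of half-sites, GGACTAGCTT 73 bases and GAACATGTCT 51 bases before the start, with 12 bases between them. Directly after GAACATGTCT, the stretch TGACATGTTC differs from the consensus in its first letter alone, so that closer pair was not counted. A full consensus was found in 24 of all 32851 windows (0.0731%) and in 1 of the 11 windows of these genes. At the second annotated Cdkn1a start neither motif was found. Exact matches to a single half-site stood in windows of Aen, Ccng1, Gadd45a, Mdm2 and Sesn1. Thus 6 of the 8 genes had at least 1 match, against 9.55% of all 27025 genes with a window. In Ccng1 the stretch AGACCTGCCC, directly before the marked half-site, differs from the consensus in a single letter, so the pair was not counted. In Aen the half-site GGGCTTGTCC began 10 bases after the start to which the printed window belongs. The TEAD core was found for Phlda3 and Eda2r, 2 of the 8 genes, against 16.6% of all genes. The search allowed no mismatch, so half-sites and pairs that differ from the consensus were missed, and genes with a lone match may hold a pair. A match of letters is not a bound site, and response elements outside these windows, as in introns, were not searched.

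Signals are given as multiples of the array's 75th percentile signal, and differences as icKO minus control on the log2 scale. The share of probes well above background was 47.7% to 50.9% by array, none was saturated, and the number of arrays limits the precision. A probe was tested where all 3 arrays of either group showed it well above background, which gave 22278 features, each gene standing for its brightest kept probe. Of these, 9974 differed (44.8%; limma, Benjamini-Hochberg adjusted p, threshold 0.05), 16.0% higher and 28.7% lower in icKO ventricles. The groups did not overlap for 59.3% of features. The targeted gene Tead1 differed by -0.40 ± 0.11 (SE; adjusted p = 0.0300) through its brightest probe and by -0.43 and -0.19 through its other probes. Whether these probes lie in the floxed exons was not known from the files used here, and they are no check of the labels. The brightest probe's call was lost in 11 of 20 alternatives, and with spike-in scaling its difference was 0.043. Nothing in the labels beyond the word biological says how the mice were related, so p-values measure the spread between these mice.

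Of the 10 genes, 9 passed the filter on dim probes, each on all 3 arrays of both groups, and Eda2r did not. Cdkn1a, Trp53inp1, Phlda3, Sesn1 and Zmat3 rose, and Gadd45a, Ccng1 and Aen fell. Thus 5 of 9 were higher, where 16.0% of all features were, and 3 of 9 were lower, where 28.7% of all features were. The genes were chosen with earlier results of these data known, so these shares describe them and test nothing. Mdm2 did not pass. The median difference of the 9 genes was 0.46, against -0.14 over all features, and their differences ran between -1.09 and 2.46. For all 9, including Mdm2, the groups did not overlap, as for 59.3% of all features.

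**Figure D1:**
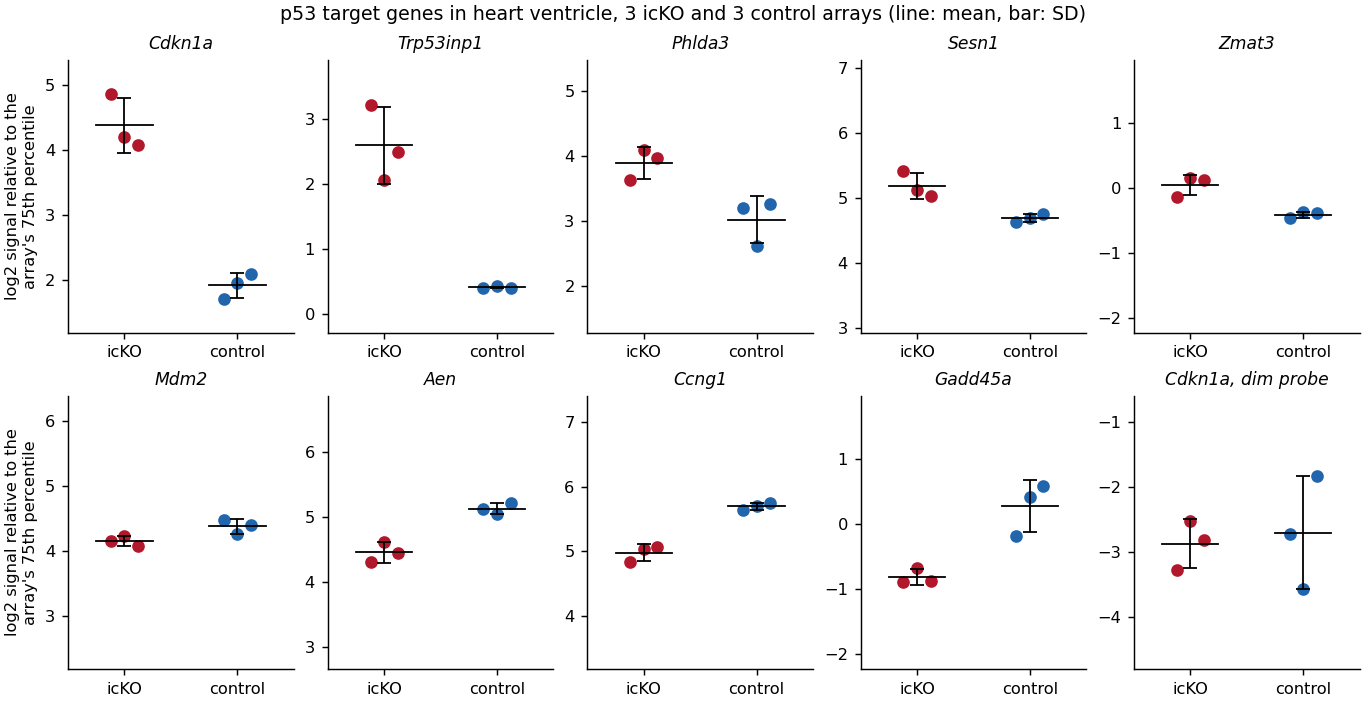
Log2 signal relative to the array's 75th percentile (y axis) of the brightest probe of 9 p53 target genes, and of the dim Cdkn1a probe, on 3 icKO arrays (red, left) and 3 control arrays (blue, right); lines are means, bars are SD, and every panel spans the same number of log2 units. The top row holds the 5 genes that rose, and the bottom row Mdm2, which did not pass, the 3 genes that fell and the dim Cdkn1a probe, whose groups overlap.

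Cdkn1a encodes p21, the inhibitor of cyclin-dependent kinases through which p53 stops the cell cycle. Its bright probe, A_51_P363947, gave 29.2, 18.5 and 16.9 times the 75th percentile signal on icKO arrays, against 3.27, 3.87 and 4.29 times on control arrays. The lowest icKO array was well over the highest control array, and icKO replicate 1 was the highest of the 6. The difference was 2.46 ± 0.23 (SE, n = 3 and 3; limma adjusted p = 0.000662), or 5.52-fold, the largest of the 9 genes, and it was called in all 20 alternatives.

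This probe is printed as 10 spots on each array, so the error between spots of an array could be seen directly. On icKO replicates 1, 2 and 3 the spots ran from 27.3 to 31.4, from 17.0 to 19.5 and from 14.5 to 18.6 times the 75th percentile. On control replicates 1, 2 and 3 they ran from 3.10 to 3.57, from 3.57 to 4.04 and from 3.99 to 4.52 times, with 8 spots used on control replicate 1 and 10 on every other array. The SD between spots of an array was 0.051 to 0.102 on the log2 scale. Between mice it was 0.425 in icKO and 0.198 in controls, a spread that also holds any error of labelling and hybridisation between arrays.

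The second Cdkn1a probe, A_55_P1986282, carries the accession of another transcript of the gene and was dim. It gave 0.103, 0.175 and 0.142 times the 75th percentile on icKO arrays, against 0.152, 0.0846 and 0.282 times on control arrays, where 2 of 3 were well above background. The groups overlapped, and the difference was -0.17 with a 95% interval from -1.22 to 0.89 (adjusted p = 0.781 over all 26152 kept probes, of which 44.3% were called). The bright probe therefore carries the result, and with the mean of both probes the gene's difference was 1.15 (adjusted p = 0.0105).

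**Figure D2:**
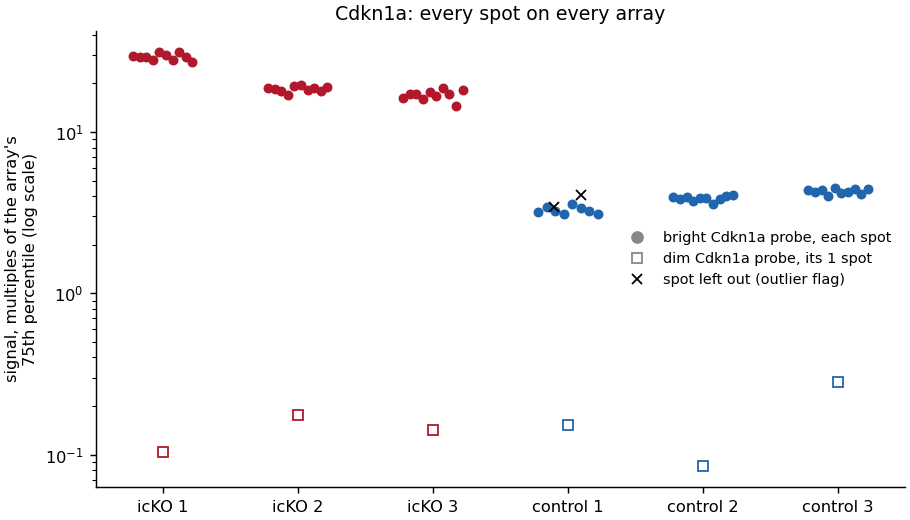
Signal of every Cdkn1a spot in multiples of the array's 75th percentile (log axis) on each of the 3 icKO (red) and 3 control (blue) arrays; filled circles are spots of the bright probe, open squares the single spot of the dim probe, and crosses spots left out for an outlier flag. The icKO spots of the bright probe run from 14.5 to 31.4 and all control spots used from 3.10 to 4.52, whereas the dim probe lies under 0.3 on every array with no separation of the groups.

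Gadd45a, a stress sensor that binds PCNA and p21 and activates p38 and JNK signalling, went the other way from Cdkn1a. It gave 0.537, 0.623 and 0.545 times the 75th percentile on icKO arrays, against 0.882, 1.34 and 1.49 times on control arrays. Control replicate 1 was the lowest control and still above all icKO arrays. The gene fell by 1.09 ± 0.21 on the log2 scale (adjusted p = 0.00746), 2.13-fold lower in icKO.

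Mdm2 and Ccng1 belong to the feedback on p53. Mdm2, the ligase that degrades p53, gave 17.7, 18.6 and 16.8 times the 75th percentile on icKO arrays, against 22.3, 19.1 and 21.1 times on control arrays. The groups lay side by side without overlap, but the difference of -0.23 had a 95% interval from -0.48 to 0.02 and did not pass (adjusted p = 0.112). Its sign turned with spike-in scaling (0.21, adjusted p = 0.252). Ccng1 encodes cyclin G1, which recruits phosphatase PP2A to Mdm2. It gave 28.5, 32.9 and 33.6 times the 75th percentile on icKO arrays, against 49.8, 52.1 and 53.8 times on control arrays. Ccng1 fell by 0.72 ± 0.10 on the log2 scale (adjusted p = 0.00287), 1.64-fold lower in icKO, with the control arrays close together.

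Trp53inp1, a nuclear protein that promotes p53 phosphorylation and takes part in autophagy, showed the second largest rise. Its brighter probe gave 9.30, 4.16 and 5.62 times the 75th percentile on icKO arrays, against 1.32, 1.34 and 1.31 times on control arrays. The controls were almost identical, whereas the icKO arrays spread over more than 1 log2 unit, with icKO replicate 1 the highest, as for Cdkn1a. The difference was 2.19 ± 0.28 (adjusted p = 0.00187), or 4.55-fold, and it was called in all 20 alternatives. The dimmer Trp53inp1 probe ordered the icKO arrays the same way, with 1.17, 0.613 and 0.832 times on icKO arrays, against 0.286, 0.292 and 0.369 times on control arrays, a difference of 1.42 ± 0.24 (adjusted p = 0.00525).

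Phlda3, Sesn1 and Zmat3 rose by smaller amounts. Phlda3 encodes a pleckstrin-homology protein that competes with Akt for membrane lipids. It gave 12.3, 17.1 and 15.7 times the 75th percentile on icKO arrays, against 9.12, 6.09 and 9.59 times on control arrays, a difference of 0.88 ± 0.21 (adjusted p = 0.0180). Here icKO replicate 1 was the lowest icKO array, the reverse of its place for Cdkn1a and Trp53inp1. Sesn1, a sestrin that restrains mTORC1 signalling, gave 42.8, 35.0 and 32.6 times on icKO arrays, against 24.8, 25.9 and 26.9 times on control arrays, a difference of 0.50 ± 0.13 (adjusted p = 0.0207). Zmat3, a zinc finger protein that binds RNA, gave 0.914, 1.12 and 1.09 times on icKO arrays, against 0.727, 0.772 and 0.766 times on control arrays, a difference of 0.46 ± 0.11 (adjusted p = 0.0175).

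The calls of these 3 genes were the least stable of the 8. The Phlda3 call was lost without icKO replicate 2 (0.78, adjusted p = 0.0548) or icKO replicate 3 (0.84, adjusted p = 0.0553). The Sesn1 call was lost without control replicate 1 (0.47, adjusted p = 0.0615) or control replicate 2 (0.50, adjusted p = 0.0549). The Zmat3 call was lost without icKO replicate 2 (0.40), icKO replicate 3 (0.42), control replicate 1 (0.43) or control replicate 3 (0.47), with adjusted p between 0.0505 and 0.0574. With no filter on dim probes, when 49244 features were tested, all 3 calls were lost as well (adjusted p = 0.0675, 0.0880 and 0.0827 for Phlda3, Sesn1 and Zmat3). No direction turned.

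Aen and Eda2r act in cell death. Aen is a nuclease that helps to cut DNA in apoptosis, and it fell. Its brighter probe gave 19.7, 24.4 and 21.7 times the 75th percentile on icKO arrays, against 34.6, 33.0 and 37.2 times on control arrays, a difference of -0.68 ± 0.11 (adjusted p = 0.00507), 1.60-fold lower in icKO. A second Aen probe gave nearly the same, 19.6, 19.8 and 19.8 times on icKO arrays, against 30.5, 31.1 and 34.2 times on control arrays, with a difference of -0.69 ± 0.09 (adjusted p = 0.00207 over all kept probes). Eda2r, the receptor for the ectodysplasin A2 ligand, was not well above background on any of the 6 arrays with either of its probes. Its highest signal was 0.0300 times the 75th percentile, so no difference can be given for it.

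How the 9 genes divide into rises and falls depended on the scaling between arrays only for the falls. Median scaling added 0.16 and spike-in scaling 0.44 to every log2 difference, because the 75th percentile signal was 312, 348 and 292 on icKO arrays, against 189, 233 and 215 on control arrays, while the spike-in signal was 601, 707 and 573 on icKO arrays, against 578, 534 and 590 on control arrays. With spike-in scaling the same 5 genes were called higher, Phlda3 by 1.32, Sesn1 by 0.94 and Zmat3 by 0.90, and none of the 9 was called lower. Gadd45a, Ccng1 and Aen then differed by -0.65, -0.28 and -0.24 (adjusted p = 0.0843, 0.221 and 0.260). With median or quantile scaling all 8 calls held.

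**Figure D3:**
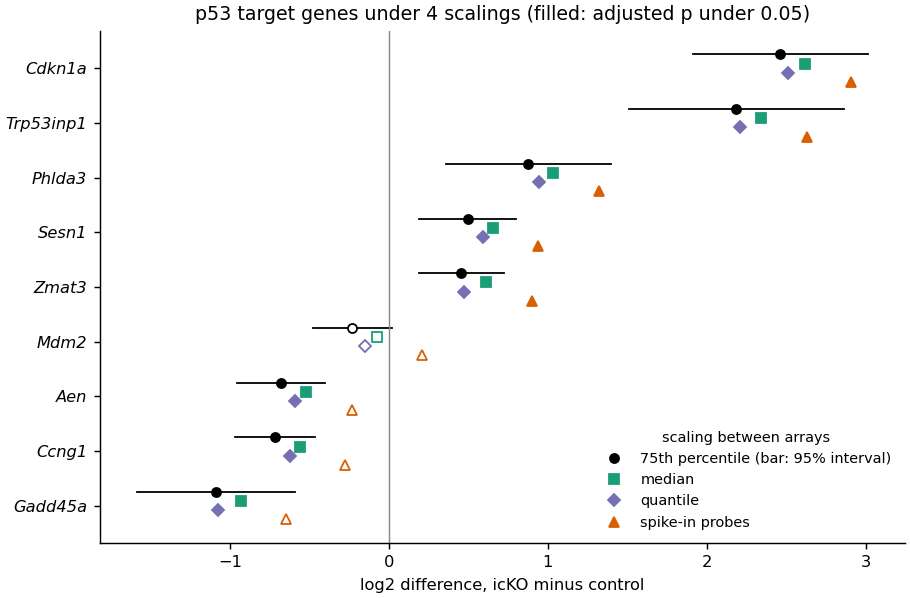
Log2 difference, icKO minus control (x axis), of the 9 tested p53 target genes (y axis) under 4 scalings between arrays; the bar is the 95% interval with 75th percentile scaling, and filled symbols have an adjusted p under 0.05. The 5 genes at the top stay to the right of 0 under each scaling, and with spike-in scaling the 3 at the bottom keep their side of 0 with open symbols while Mdm2 crosses it.

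The arrays lay on 1 slide, icKO arrays in its columns 2, 3 and 3 and control arrays in its columns 1, 1 and 2, so position and group can hardly be told apart. Within column 2, which held icKO replicate 1 and control replicate 3, the differences were 2.77 for Cdkn1a, 2.83 for Trp53inp1, 0.67 for Sesn1, 0.36 for Phlda3 and 0.26 for Zmat3. In the same pair Gadd45a differed by -1.47, Ccng1 by -0.92, Aen by -0.92 and Mdm2 by -0.25. With slide column as a block the difference is that of this pair alone, 1 icKO array against 1 control array, with the spread taken from columns that hold 1 group, and Cdkn1a, Trp53inp1, Ccng1 and Aen were called in that fit.

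The genes that set the level of p53 had no common direction, and some rose while others fell. Trp53 itself was dim, with 0.121, 0.189 and 0.181 times the 75th percentile on icKO arrays, against 0.189, 0.205 and 0.195 times on control arrays, and differed by -0.29 ± 0.18 (adjusted p = 0.234). It was called lower with normexp background correction (-0.32, adjusted p = 0.0362) and its sign turned with spike-in scaling (0.15, adjusted p = 0.596). Mdm4, the partner of Mdm2 that masks p53's activation domain, differed by -0.06 ± 0.15 (adjusted p = 0.780), and by 0.10 and 0.39 with median and spike-in scaling. Of 14 listed regulators, p53 included, 12 were tested, 5 rose, 2 fell and 5 did not pass, with a median of 0.00. Among all features 44.8% were called, 16.0% higher and 28.7% lower. With spike-in scaling 6 regulators rose and 1 fell, where 81% of all calls were higher. Rchy1, a ubiquitin ligase for p53, rose by 0.73 ± 0.13 (adjusted p = 0.00613), and Usp7, which removes ubiquitin from Mdm2 and p53, by 0.50 ± 0.09 (adjusted p = 0.00724). Chek2, a kinase of the DNA damage response, fell by at least 2.54-fold in the processed signals used here (adjusted p = 0.00401). It was well above background on no icKO array and passed the filter through its control arrays alone. The bound took, on each icKO array, the higher of Chek2's own signal and the lowest signal of any probe well above background. Chek2's own signal was the higher on icKO replicates 1 and 2 (0.0603 and 0.0579 times the 75th percentile), though barely on replicate 2. The bound did not hold with normexp correction. The fitted Chek2 difference was -1.83, and -0.79 with normexp correction (adjusted p = 0.000318), and the call was lost with slide column as a block (-1.54, adjusted p = 0.121). Cop1, a further ligase for p53, fell by 0.38 ± 0.09 (adjusted p = 0.0168), but its sign turned with spike-in scaling (0.057) and other probes gave 0.14 and -0.39.

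Other known p53 targets, listed by what they do, were read in the same way. These lists too were made with earlier results of these data known, so their counts are descriptive. Of 41 genes in 5 lists, 33 were tested, 10 rose, 6 fell and 17 did not pass, and their median was 0.19, against -0.14 over all features. The 16 calls stand beside 44.8% called among all features, a like share, with 16.0% higher and 28.7% lower. Among arrest genes 2 of 5 rose and none fell, Plk3, a polo-like kinase, by 1.02 ± 0.20 (adjusted p = 0.00831) and Btg2, an antiproliferative cofactor of mRNA deadenylation, by 1.24 ± 0.33 (adjusted p = 0.0238). Btg2 gave 5.69, 2.83 and 2.92 times the 75th percentile on icKO arrays, against 1.16, 2.03 and 1.52 times on control arrays, with icKO replicate 1 again the highest. Its call was lost without control replicate 1 (1.04) or control replicate 3 (1.23).

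Cell death targets gave a rise known only as a bound, that of Pmaip1, beside several that did not pass. Of 10 tested, 3 rose and 2 fell, and these 5 calls lie near the 44.8% called among all features, 16.0% higher and 28.7% lower. Spike-in scaling gave 6 rises and 1 fall, where 81% of all calls were higher. Pmaip1, the BH3-only protein Noxa, gave 0.275, 0.216 and 0.199 times the 75th percentile on icKO arrays, against 0.0208, 0.0214 and 0.0233 times on control arrays, none of which was well above background. It passed the filter through its icKO arrays alone. In the processed signals used here it was at least 3.31-fold higher in icKO, a bound taken on the control arrays as for Chek2. That bound did not hold with normexp correction. The fitted log2 difference was then 0.44 (adjusted p = 0.00456), against 3.38 in the fit used here. Apaf1, the scaffold of the apoptosome, rose by 0.67 ± 0.19 (adjusted p = 0.0281), though with normexp correction it differed by 0.08 (adjusted p = 0.501). The Apaf1 call was also lost without icKO replicates 1 or 2 or control replicates 2 or 3 (0.65, 0.58, 0.69 and 0.50). Siva1 and Ei24, both linked to p53-dependent death, fell by 1.43 ± 0.27 and 0.51 ± 0.09 (adjusted p = 0.00689 and 0.00489), and with spike-in scaling Ei24 differed by -0.07. Bax and Bbc3, the death effectors most often read as p53 targets, were named after their values were seen and differed by 0.19 ± 0.14 and 0.08 ± 0.16 (adjusted p = 0.308 and 0.717).

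Of 6 DNA repair targets tested, 1 fell, none rose and 5 did not pass, where 44.8% of all features were called, and spike-in scaling gave 1 rise and no fall. The fall was Fancc, a Fanconi anaemia core subunit, by 0.74 ± 0.11 (adjusted p = 0.00316). Metabolic and redox targets were evenly split, with 3 of 8 higher and 3 lower, or 4 and 1 with spike-in scaling. Ephx1, an epoxide hydrolase, and Gpx1, a glutathione peroxidase, rose by 0.59 ± 0.12 and 0.45 ± 0.11 (adjusted p = 0.00833 and 0.0205), a Gpx1 call that was lost without control replicate 2 (0.42) or 3 (0.43). Sco2, an assembly factor of cytochrome oxidase, and Ak1, the adenylate kinase of muscle cytosol, fell by 1.32 ± 0.14 and 0.78 ± 0.11 (adjusted p = 0.00111 and 0.00270), and the Ak1 call was lost with spike-in scaling (-0.34). Of 4 tested genes for secreted and surface proteins 2 rose and none fell, the same counts as with spike-in scaling. Thbs1, the matrix protein thrombospondin-1, and Cd82, a tetraspanin of the cell surface, rose by 4.18 ± 0.22 and 0.51 ± 0.12 (adjusted p = 0.000151 and 0.0160). The Cd82 call was lost without icKO replicate 3 (0.48) or control replicate 3 (0.50).

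**Figure D4:**
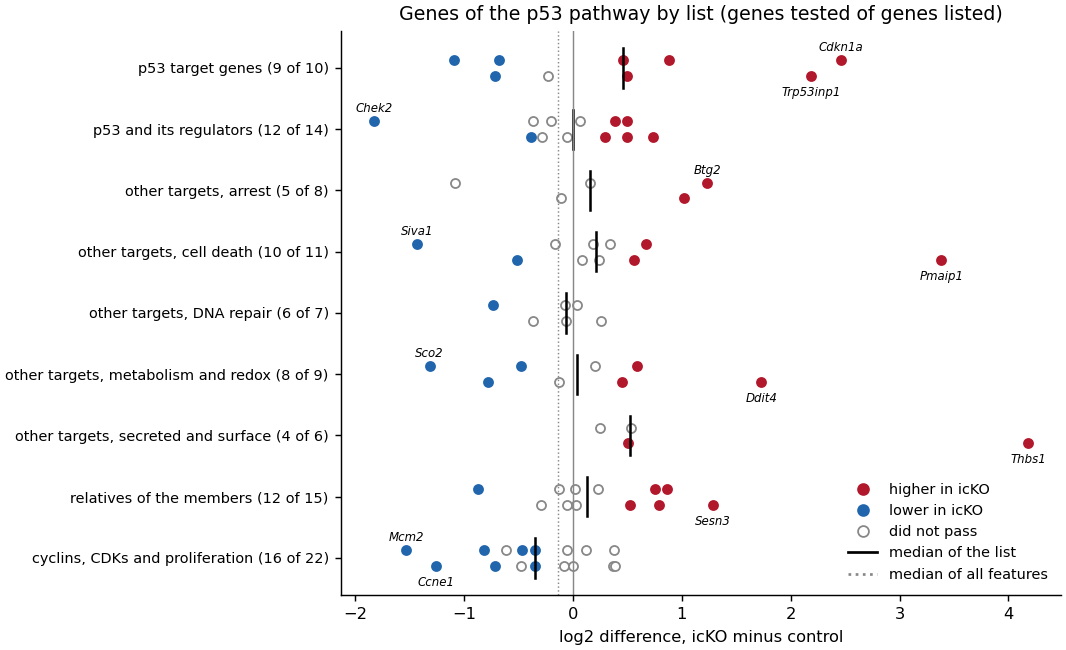
Log2 difference, icKO minus control (x axis), of each tested gene of the p53 pathway, by list (y axis, with genes tested of genes listed); red points rose, blue points fell, open points did not pass, black ticks are list medians and the dotted line the median of all features. The 9 tested p53 target genes span -1.09 to 2.46, and rises over 3 log2 units are seen for Thbs1 and Pmaip1, the last drawn at its fitted value although its control arrays give only a bound.

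Paralogs and partners of the 10 genes were taken as another list. Of 15 listed relatives 12 were tested, 5 rose and 1 fell, or 8 and none with spike-in scaling, and these 6 calls of 12 lie near the 44.8% of all features. Cdkn1c, the p57 inhibitor of the same family as Cdkn1a, fell by 0.87 ± 0.09 (adjusted p = 0.000983), and with spike-in scaling differed by -0.43 (adjusted p = 0.0675). It gave 3.37, 3.11 and 2.98 times the 75th percentile on icKO arrays, against 5.69, 5.76 and 5.85 times on control arrays. Sesn3, a sestrin under FOXO control, rose by 1.28 ± 0.16 (adjusted p = 0.00156), and Ccng2, the second cyclin G, by 0.53 ± 0.11 (adjusted p = 0.00995), whereas Ccng1 fell. The Ccng2 call was lost with normexp correction (0.14, adjusted p = 0.216). Gadd45b and Gadd45g, named here beside Gadd45a after their values were seen, rose by 0.75 ± 0.20 and 0.86 ± 0.19 (adjusted p = 0.0236 and 0.0119).

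Of the cyclins, kinases and proliferation genes on which p21 acts or which arrest silences, 16 of 22 were tested, 7 fell and none rose, with a median of -0.35, where 28.7% of all features were lower and 16.0% higher. Called in either direction were thus 7 of 16, near the 44.8% of all features. With spike-in scaling 2 fell and 3 rose. Ccnd2 and Ccne1, cyclins D2 and E1, fell by 0.72 ± 0.11 and 1.26 ± 0.21 (adjusted p = 0.00373 and 0.00476), and with spike-in scaling the Ccnd2 call was lost (-0.27). Mki67, the proliferation antigen, was named after its values were seen. It gave 0.661, 1.18 and 0.524 times the 75th percentile on icKO arrays, against 0.781, 0.654 and 0.905 times on control arrays, and the groups overlapped (adjusted p = 0.892). Aurkb, Ccne2, Cdk1 and Cdk6 were well above background on no array.

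Markers of the cell types in the ventricle were read as well. Among all features 44.8% were called, 16.0% higher and 28.7% lower, and with spike-in scaling 81% of all calls were higher. Of 8 macrophage markers tested 6 rose and none fell, and their summed signal was 112 to 126 times the 75th percentile in icKO, against 63.2 to 77.0 times in controls. Of 8 fibroblast markers 6 rose and none fell, with sums of 503 to 605 times in icKO, against 216 to 347 times in controls. A sum follows its brightest genes. Dcn alone gave 389 to 435 times in icKO, against 174 to 289 times in controls. The macrophage and endothelial sums likewise hold the bright genes Itgam and Flt1, neither of which was called. Of 8 cardiomyocyte markers none rose and 6 fell, with sums of 4776 to 5399 times in icKO, against 7109 to 8603 times in controls. Their median difference was -0.60. With spike-in scaling 1 fell, and with quantile normalization 2 fell, with a median of 0.06. Of 7 endothelial markers 3 fell and none rose, with sums of 47.2 to 61.3 times in icKO, against 63.8 to 74.4 times in controls, and none fell with spike-in scaling. Of 4 genes tested as lymphocyte markers 1 rose and 2 fell. The fall was in Cd4 and Cd3e, and the rise in Ptprc, which is made by leukocytes at large and not by lymphocytes alone. Cd8a was above background on no array. The sums were 2.55 to 2.72 times in icKO, against 3.20 to 3.90 times in controls, and with spike-in scaling none of these markers fell. Among the 6 markers of pericytes and smooth muscle, 2 rose, 1 fell (3 and none with spike-in scaling) and the sums overlapped. The 3 calls of 7 endothelial markers and 3 of 6 pericyte and smooth muscle markers lie near the 44.8% of all features. All 8 cardiomyocyte markers passed the filter. Of 4 atrial markers 2 did not pass it, Myl7 and Sln. Myl4 rose by 2.04 ± 0.14 (adjusted p = 0.000277), and Nppa gave 212, 162 and 138 times the 75th percentile on icKO arrays, against 213, 72.0 and 119 times on control arrays, which overlapped (0.46 ± 0.39, adjusted p = 0.371). In whole tissue, fewer cells of a type and less RNA per cell cannot be told apart, and the part of other cell types in the rise of Cdkn1a or any other gene was not tested.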

How the data were processed

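Per the labels' protocols, Cy3-labelled RNA of heart ventricle was put on Agilent arrays of 1 colour. The deposited scanner output gives the linear intensity of each spot of design 028005 (mm9), read with Feature Extraction 11.0.1.1 per the file headers, although version 9.1 is named in the submitters' processing notes. The processed signal was background-subtracted within each array and not scaled between arrays. A value table deposited by the authors has linear intensity with nearly equal sorted columns and an unstated normalization. It served as an alternative only.

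Processed signals were log2-transformed, the 75th percentile of all non-control spots of the array was subtracted, outlier-flagged spots were dropped, and a mean was taken over each probe's spots. A probe counted as well above background on an array where at least 0.5 of its spots did. RefSeq accessions named 26582 probes. Groups were compared with limma 3.58.1 in R 4.3.3 (lmFit, eBayes) with no term but group, with Benjamini-Hochberg adjustment over all 22278 features, or over 26152 kept probes for a gene's further probes. All 6 arrays entered every fit except where one is said to be left out. A 3 against 3 exact permutation test cannot go below 0.1, so none is given. The steps were tested on simulated data. Normexp correction used the median spot signal with an offset of 50, since the files give no mean signal.

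The genes and lists were chosen with earlier results of these data known. Beyond the 10 genes, the rule named Trp53, Mdm4, Tead1 and up to 2 rises and 2 falls with the smallest p from each list. One gene of these lists is not reported here and was left out of their counts. Promoters are from RefSeq.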

Additional observations from a re-analysis of the deposited data

How the results depend on the processing

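The 20 alternatives were those chosen at the start plus slide column as a block, which was chosen after seeing the data. The rises of Cdkn1a (1.15 to 2.91) and Trp53inp1 (1.81 to 2.83) were called in all 20, Ccng1 and Aen in 19, Gadd45a in 18, Phlda3 and Sesn1 in 15 and Zmat3 in 14. Called were 9974 features, 3573 higher and 6401 lower. As separate totals, median scaling gave 3657 lower, spike-in scaling 7175 higher and 1680 lower, and no filter on dim probes 6123 of 49244 tested, 2127 higher and 3996 lower. The share of calls that were higher was 35.8%, against 54.6% with median and 81.0% with spike-in scaling. Of the p53 target genes, 5 were called with spike-in scaling, none of them lower, and 5 with no filter, 2 of them higher. Of the 71 pathway genes tested 36 were called, where 44.8% of all features were. With no filter, which tests more features, 18 were called, where 12.4% of all features were. With slide column as a block 3080 features (13.8%) were called, 1167 higher and 1913 lower. That fit, whose difference is that of 1 icKO array against 1 control array, called 4 p53 target genes (2 higher) and 9 pathway genes. Leaving out each array gave 7546 to 9084 features, or 33.9% to 40.8% (2786 to 3213 higher, 4733 to 5871 lower). It gave 6 to 8 p53 target genes (3 to 5 higher, 3 lower each time) and 22 to 29 of the 71 pathway genes.

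Signs turned with spike-in scaling for Mdm2 (0.21), Trp53 (0.15), Mdm4 (0.39), Tead1 (0.043) and Cop1 (0.057), of which Tead1 and Cop1 had been called. Mdm4 also gave 0.10 with median scaling and -0.16 to 0.061 when each array was left out, above 0 without icKO replicate 3 or control replicate 3. The causes were not tested. Same-numbered arrays did not deviate together (correlations of -0.05, -0.13 and 0.00 for replicates 1, 2 and 3). That gave no sign that the numbers pair the mice, but with 3 arrays per group it cannot exclude a pairing. With the replicate block 7881 features were called, with 3 p53 target genes higher and 3 lower. Signal over background limits Eda2r, Trp53 and the dim Cdkn1a probe.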

Other observations

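Within the icKO group the genes did not order the 3 mice alike. Cdkn1a through its bright probe, Trp53inp1 through both probes, Sesn1 and Btg2 were highest on icKO replicate 1. Phlda3, Zmat3, Ccng1, Aen, Gadd45a and the dim Cdkn1a probe were lowest on that array among the icKO arrays. Ddit4, an mTORC1 inhibitor that glucocorticoids and p53 induce, was also in the list of metabolic targets and gave 142, 74.1 and 148 times the 75th percentile on icKO arrays, against 19.7, 61.2 and 35.4 times on control arrays (1.73 ± 0.46, adjusted p = 0.0239, limma). Gdf15, a secreted stress cytokine and p53 target, gave 0.722, 1.44 and 0.844 times on icKO arrays, against 1.30, 0.342 and 0.648 times on control arrays, and the groups overlapped (0.53 ± 0.51, adjusted p = 0.423). Both genes were named after their values were seen, and with 3 mice per group the order within a group was not tested.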
